A study of Homo sapiens with 66 samples.

Results

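MYB and 9 genes that mark or direct the myeloid lineage (SPI1, CEBPA, CEBPB, CSF1R, CD14, MPO, ELANE, LYZ, and ITGAM) were followed through all groups, days, and compartments of 2 RNA-seq studies of THP-1 cells. They were chosen by name for their known roles in monocytes and granulocytes and were found by their Ensembl identifiers among the 57820 genes of each gene count table. The 15 introns of MYB were added by their GRCh37 positions from the 197626 introns counted in study 1. All 10 genes had reads in every library. With the requirement of a mean log2 CPM (CPM are counts scaled to library size) of at least 0.5, 9 of the 10 genes could be tested in study 1 (all but CD14) and 8 in study 2 (all but CD14 and CEBPA). Of the MYB introns, 13 of 15 passed the minimum of 1 set for introns.

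THP-1 cells derive from a human monocytic leukemia. In study 1, a STING-deficient clone with a Cas9 transgene was nucleofected with nontarget guide RNA (CTRL) or with gRNA against GFP, HNRNPC, ADAR, or the latter pair (ADAR+hnRNPC), and total RNA was taken on days 3, 4, and 5, with an extra group of CTRL cells given IFN-α and taken on day 4. These were 16 groups of 3 libraries (48 in all). In study 2, a wild-type Cas9 clone received other gRNAs against HNRNPC and ADAR, and total and cytosolic RNA (after digitonin lysis) of CTRL, hnRNPC-, ADAR-, and ADAR+hnRNPC-targeted cells and nuclear RNA of hnRNPC-targeted cells were sequenced on day 4, in 9 groups of 2 libraries (18 in all). All groups of a study thus share 1 clone that carries Cas9, and each gRNA group is a bulk population in which edited and unedited cells were not separated. The clone, the gRNAs, and the sequencing differ together between the studies, so that their levels are given side by side only.

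Gene count totals ranged from 95107700 to 152829000 per library in study 1 and from 49667000 to 73873800 in study 2. HNRNPC itself had 294 to 417 CPM in the 18 libraries of study 1 with its gRNA and 725 to 869 CPM in the 30 without. In study 2 these ranges, taken over total, cytosolic, and nuclear libraries together, overlapped (297 to 701 and 581 to 1025 CPM). ADAR transcripts overlapped between libraries with and without ADAR gRNA in study 1 (344 to 1509 and 364 to 1373 CPM). These ranges take all days and groups together, with IFN-α–treated cells among those without ADAR gRNA. Pooled in this way, the transcript level alone did not separate the ADAR-targeted groups. Of 8 monocytic markers, CSF1R, LYZ, ITGAM, CD33, and SPI1 were present in every library, but FCN1 was listed at 0 CPM in all of study 1, CD68 stayed at or below 0.292 CPM, and CD14 was low. The other-lineage markers CD3D, CD3E, CD2, CD79A, MS4A1, PF4, PPBP, and KLRD1 stayed below 0.3 CPM and HBB and ALAS2 at or below 0.894 CPM, whereas ITGA2B was found at up to 5.39 CPM and NCAM1 at up to 12.3 CPM in study 2.

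MYB is a transcription factor of hematopoietic progenitors that keeps myeloid cells proliferating and normally declines as they mature. SPI1 (PU.1) and the C/EBP factors CEBPA and CEBPB switch on the genes of the granulocyte and monocyte lineages, among them the receptor of macrophage colony-stimulating factor (CSF1R), the lipopolysaccharide coreceptor CD14, the integrin αM chain (ITGAM, CD11b), lysozyme (LYZ), and the azurophil granule enzymes myeloperoxidase (MPO) and neutrophil elastase (ELANE). hnRNPC is a nuclear RNA-binding protein that prefers uridine tracts and keeps intronic Alu elements out of mature messages, and ADAR converts adenosine to inosine in double-stranded RNA, much of it formed by inverted Alu repeats.

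On GRCh37, the plus strand carries MYB (ENSG00000118513.14, chr6:135502446-135540311), CEBPB (ENSG00000172216.4, chr20:48807367-48809205), ELANE (ENSG00000197561.2, chr19:851014-856247), LYZ (ENSG00000090382.2, chr12:69742161-69748014), and ITGAM (ENSG00000169896.12, chr16:31271288-31344213). The minus strand carries SPI1 (ENSG00000066336.7, chr11:47376411-47400098), CEBPA (ENSG00000245848.2, chr19:33790840-33793440), CSF1R (ENSG00000182578.9, chr5:149432854-149492935), CD14 (ENSG00000170458.9, chr5:140011313-140013285), and MPO (ENSG00000005381.6, chr17:56347216-56358296).

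The last intron of MYB carried both the reads and the editing described below, and the sequence of its ends is therefore given first. MYB lies on the plus strand of chromosome 6 (135502446 to 135540311, GRCh37). Its 15 introns are numbered in the order in which they were counted. The principal transcript taken here has 15 exons, so that the later numbers run ahead of its own introns. Intron 15, the last by either count, spans chr6:135524463-135539001 (14539 bp). The first 626 of its bases are exons of other annotated MYB transcripts, and the remainder is intronic in all of them. In the ends of the intron, at chr6:135524443-135524502 and chr6:135538942-135539021 (plus strand), capitals mark the flanking exons.
MYB intron 15, start: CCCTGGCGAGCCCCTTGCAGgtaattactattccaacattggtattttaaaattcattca
MYB intron 15, end: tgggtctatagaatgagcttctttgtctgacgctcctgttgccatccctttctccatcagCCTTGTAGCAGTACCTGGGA
Intron 15 contains 8 runs of 9 or more T on the transcribed strand, the longest of 33 T, and 3 runs of 9 or more A. A run of 9 or more T on either strand was present in 9 of its 48 consecutive 300-base windows (18.8%) and in 13.5% of the 218083 such windows in all counted introns of chromosome 6. These matches describe letters and no binding was measured.

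Per kilobase of exon, the members spanned a wide range. In CTRL cells of study 1 on day 3, the order of RPKM levels (reads per kilobase of exon, scaled to library size) was ELANE (407 ± 34.5), LYZ (218 ± 38.8), MYB (123 ± 0.385), SPI1 (29.0 ± 2.43), CSF1R (9.33 ± 0.565), CEBPB (6.58 ± 0.132), ITGAM (3.30 ± 0.134), MPO (2.03 ± 0.186), CEBPA (1.27 ± 0.421), and CD14 (0.217 ± 0.0959; SD, n = 3 each). Adjacent genes in this order did not overlap between their 3 libraries on day 3. On day 4 the order was less distinct, as LYZ (126 ± 13) overlapped MYB (123 ± 4.05), and ITGAM (2.61 ± 0.145), CEBPA (2.54 ± 0.563), and MPO (2.12 ± 0.127) overlapped in part (SD, n = 3 each). Lysozyme and elastase transcripts thus stood above every other member per length in total RNA of these cells on day 3, and CD14 was the lowest. All these are bulk measurements, in which fewer cells of a type and less RNA per cell cannot be told apart.

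**Figure D1:**
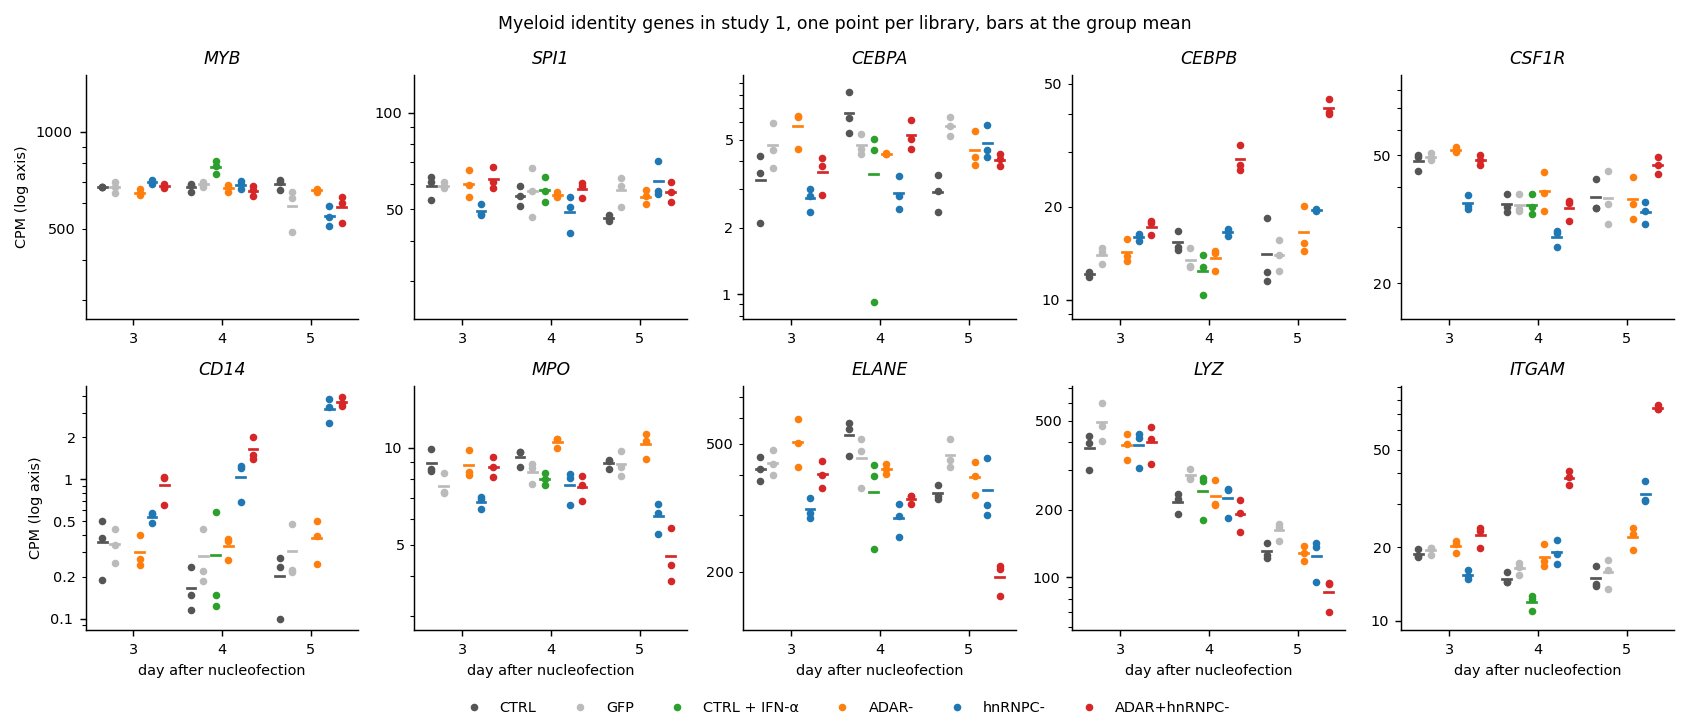
CPM (log axis) of the 10 myeloid genes in study 1 by day after nucleofection, with 1 point per library, colored by group, and a bar at the mean of 3 libraries. ITGAM and CD14 of hnRNPC- and ADAR+hnRNPC-targeted cells rise above the CTRL points by day 5, CEBPB does so in ADAR+hnRNPC-targeted cells, LYZ is lower at each later day in all groups, and MYB stays between 487 and 810 CPM in all libraries.

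Whether targeting hnRNPC, ADAR, or both changed the myeloid genes was asked against CTRL cells of the same day. MYB stayed within a narrow range. It had 674, 672, and 676 CPM in the 3 CTRL libraries of day 3, 649, 685, and 690 CPM on day 4, and 662, 701, and 707 CPM on day 5. With hnRNPC gRNA the libraries had 696, 709, and 691 CPM on day 3, 663, 702, and 691 CPM on day 4, and 544, 586, and 510 CPM on day 5. In ADAR+hnRNPC-targeted cells the values were 687, 669, and 674 CPM on day 3, 631, 678, and 658 CPM on day 4, and 629, 602, and 523 CPM on day 5. The day 5 libraries of both hnRNPC gRNA groups were thus all below the 3 CTRL libraries, and the earlier ones were at the CTRL level. The same was seen in GFP-targeted cells of day 5, with 622, 649, and 487 CPM.

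On the log2 scale, MYB in hnRNPC-targeted cells differed from CTRL by 0.05 (SE 0.0650, adjusted p = 0.557) on day 3, 0.02 (SE 0.0650, adjusted p = 0.800) on day 4, and −0.34 (SE 0.0651, adjusted p = 2.79e-05) on day 5, in edgeR's quasi-likelihood test (adjusted after Benjamini and Hochberg). In ADAR+hnRNPC-targeted cells the differences were 0.01 (adjusted p = 0.965), −0.04 (adjusted p = 0.604), and −0.24 (SE 0.0651, adjusted p = 0.00133). In GFP-targeted cells of day 5 the difference was −0.23 (SE 0.0651, adjusted p = 0.0251), of the same size as with both gRNAs. A call required both an adjusted p of at most 0.05 and a log2 fold change of 1 or more in either direction, and MYB was called in none of these comparisons. The antisense gene MYB-AS1 overlaps 103 of its exonic bases. In ADAR-targeted cells MYB differed from CTRL by −0.06, −0.01, and −0.07 on days 3, 4, and 5 (adjusted p = 0.997, 0.967, and 0.518). With IFN-α on day 4, MYB had 742, 783, and 810 CPM, all above the 3 CTRL libraries of that day, with a log2 fold change of 0.21 (SE 0.0651, adjusted p = 0.0233) that was below the limit for a call.

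Among the other transcription factors, CEBPB rose with combined targeting. It had 12.3, 11.5, and 18.4 CPM in CTRL cells of day 5, 19.5, 19.4, and 19.6 CPM in hnRNPC-targeted cells, and 40.5, 40.1, and 44.6 CPM in ADAR+hnRNPC-targeted cells. All 3 libraries with both gRNAs were thus above every library of the other groups of study 1. The log2 fold change over CTRL was 1.57 on day 5 (SE 0.123, adjusted p = 3.62e-14), and it was 0.89 (adjusted p = 8.74e-08) on day 4 and 0.51 (adjusted p = 0.0014) on day 3, in edgeR's quasi-likelihood test (adjusted after Benjamini and Hochberg).

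CEBPA was low, and its only call in a gRNA group was lower expression in hnRNPC-targeted cells on day 4 (log2 fold change −1.20, SE 0.3002, adjusted p = 0.00104). It had 2.79, 3.41, and 2.44 CPM there and 6.25, 5.37, and 8.22 CPM in CTRL cells of day 4. CTRL cells had 3.54, 4.24, and 2.10 CPM on day 3 and 2.94, 2.36, and 3.45 CPM on day 5, so that the CTRL libraries of day 4 were above those of the other days. All other groups of day 4 were also on average below CTRL, by 0.33 to 0.93 on the log2 scale, and against GFP-targeted cells the hnRNPC-targeted libraries were at −0.72 on the log2 scale (adjusted p = 0.0437), which is no call. Annotated antisense transcripts overlap 659 and 482 exonic bases of CEBPA, and whether the counting separated the strands is not given in the sources used here. SPI1 stayed between 42.3 and 70.8 CPM in all 48 libraries and was not called in any comparison of study 1.

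The surface genes showed the largest differences. ITGAM had 14.2, 13.8, and 16.7 CPM in CTRL cells of day 5, 22.5, 19.4, and 24.0 CPM in ADAR-targeted cells, 37.3, 30.7, and 31.2 CPM in hnRNPC-targeted cells, and 76.0, 73.4, and 73.1 CPM in ADAR+hnRNPC-targeted cells. These groups did not overlap. The log2 fold change of ITGAM was 1.15 (SE 0.0967, adjusted p = 7.38e-13) in hnRNPC-targeted cells on day 5, and in ADAR+hnRNPC-targeted cells it was 1.37 (SE 0.0972, adjusted p = 1.42e-14) on day 4 and 2.31 (SE 0.0995, adjusted p = 7.56e-22) on day 5, in edgeR's quasi-likelihood test (adjusted after Benjamini and Hochberg). On day 3, neither group was called (−0.29 and 0.25).

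CD14 was too low for the test as designed, and its values are given as counts of 7 to 540 reads per library. In CTRL cells it had 0.147, 0.115, and 0.234 CPM on day 4 and 0.234, 0.0991, and 0.272 CPM on day 5. With hnRNPC gRNA the values were 0.685, 1.21, and 1.24 CPM on day 4 and 3.32, 2.53, and 3.78 CPM on day 5, and in ADAR+hnRNPC-targeted cells 1.5, 1.39, and 2.03 CPM on day 4 and 3.54, 3.34, and 3.93 CPM on day 5. Every library with an hnRNPC gRNA on days 4 and 5 was thus above every library without one, and still at a low level per length. When the minimum level was dropped, edgeR gave log2 fold changes of 2.65 on day 4 (adjusted p = 1.57e-14) and 3.99 on day 5 (adjusted p = 1.73e-32) in hnRNPC-targeted cells, and of 1.34, 3.30, and 4.15 on days 3, 4, and 5 in ADAR+hnRNPC-targeted cells (adjusted p = 0.000403, 4.53e-22, and 2.51e-35). CSF1R had 25.97 to 53.2 CPM over all 48 libraries and was not called. It had 46.6, 43.7, and 49.4 CPM in ADAR+hnRNPC-targeted cells of day 5, above the 34.2, 34.4, and 42.4 CPM of CTRL cells, at a log2 fold change of 0.33 (adjusted p = 0.00493). With hnRNPC gRNA alone CSF1R had lower values than in CTRL cells. They were 34.8, 34.0, and 37.6 CPM against 44.7, 49.4, and 50.1 CPM on day 3 and 26.0, 28.7, and 29.0 CPM against 37.8, 33.2, and 34.6 CPM on day 4, without overlap. The log2 fold changes were −0.44 (adjusted p = 0.00106), −0.34 (adjusted p = 0.00714), and on day 5 −0.15 (adjusted p = 0.204, edgeR).

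The granule genes had lower values in ADAR+hnRNPC-targeted cells of day 5. ELANE had 203, 209, and 168 CPM there against 373, 336, and 343 CPM in CTRL cells. MPO had 4.31, 5.63, and 3.84 CPM against 8.59, 9.09, and 9.13 CPM. LYZ had 94.3, 93.5, and 69.6 CPM against 126, 142, and 122 CPM. None of the 3 genes overlapped between these groups. Their log2 fold changes were −0.86 (adjusted p = 7.22e-06), −0.96 (adjusted p = 8.02e-10), and −0.60 (adjusted p = 0.00262), which are past the p limit and short of the fold limit for a call. In hnRNPC-targeted cells of day 5, MPO was at −0.54 (adjusted p = 4.62e-05), and ELANE and LYZ were at 0.03 and −0.06. On the earlier days ELANE had lower values in hnRNPC-targeted than in CTRL cells. It had 257, 298, and 324 CPM in hnRNPC-targeted cells of day 4 against 558, 459, and 581 CPM in CTRL cells, without overlap. The log2 fold changes of ELANE with hnRNPC gRNA were −0.42 on day 3 (adjusted p = 0.0318) and −0.86 on day 4 (adjusted p = 1.86e-05). With both gRNAs they were −0.05 on day 3 (adjusted p = 0.837) and −0.66 on day 4 (adjusted p = 0.000482, edgeR). The other groups of day 4 were also at lower ELANE values than CTRL, with −0.59 for IFN-α (adjusted p = 0.00668), −0.35 for ADAR (adjusted p = 0.325), and −0.24 for GFP (adjusted p = 0.836), and none of these was called.

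LYZ also fell with time in CTRL cells, from 428, 399, and 300 CPM on day 3 to 224, 234, and 191 CPM on day 4 and 126, 142, and 122 CPM on day 5. The log2 fold change of day 5 over day 3 was −1.53 (SE 0.179, adjusted p = 6.99e-08 in edgeR's quasi-likelihood test). The days did not overlap in CTRL cells. LYZ was the only member called between CTRL days, where 0.667% of all tested genes were called. GFP-targeted cells showed the same order of days, with 598, 474, and 407 CPM on day 3 and 173, 168, and 145 CPM on day 5. LYZ overlaps an annotated antisense transcript over 599 exonic bases.

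In counts of calls among the 9 tested members, hnRNPC targeting gave 0 on day 3, 1 (CEBPA, lower) on day 4, and 1 (ITGAM, higher) on day 5, where 1.04, 3.22, and 7.72% of all tested genes were called. ADAR+hnRNPC targeting gave 0, 1, and 2 calls, all higher, where 1.17, 4.71, and 15.6% of all genes were called. ADAR targeting gave no member call on any day (all genes, 0, 0.0682, and 0.273%), GFP targeting none (all genes, 0.0227, 0, and 0.212%), and IFN-α none (all genes, 1.32%). At an unadjusted p under 0.05 by edgeR's test, 1, 3, and 3 members passed with ADAR targeting, 2, 1, and 4 with GFP targeting, 6 with IFN-α, 6 with hnRNPC targeting on day 3, and 2 with both on day 3. DESeq2 called 0 members in each of these, and limma-voom called 0 except 1 (CEBPA, −1.30) with IFN-α. With at most 2 of 9 members called, these counts lie near the shares for all genes and single out no property of the members as a list. The median log2 fold change of the tested members on day 5 was 0.03 with hnRNPC gRNA and 0.27 with both gRNAs, beside −0.03 and −0.04 over all tested genes.

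Whether ADAR and hnRNPC targeting acted together in more than an additive way on the log2 scale was tested per day as an interaction, (ADAR+hnRNPC − hnRNPC) − (ADAR − CTRL). No member passed on day 3, when 0% of all genes did (4 members had an unadjusted p under 0.05 by edgeR, and limma-voom and DESeq2 gave 0). On day 4, 3 members passed beside 11.1% of all genes. These were CEBPA (1.47, adjusted p = 0.0199), CEBPB (0.95, adjusted p = 0.00033), and ITGAM (0.72, adjusted p = 0.000572). For CEBPA, the value without the third CTRL library of day 4 was 1.29 (adjusted p = 0.0513). On day 5, 5 members passed beside 47.6% of all genes, with CEBPB (0.86), CSF1R (0.50), and ITGAM (0.61) above and ELANE (−1.06) and MPO (−0.61) below the sum of the single effects. ELANE had the opposite sign on day 4 (0.55, unadjusted p = 0.0168, adjusted p = 0.0983) and did not pass there, but did without the minimum level (adjusted p = 6.38e-06) and in a fit of the 12 libraries of the day (adjusted p = 0.035, edgeR). MYB did not pass on any day (0.01, −0.05, and 0.17). All of these contrasts share the CTRL libraries of their day.

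Related genes from lists of the same lineages were counted in the same fit. Of 20 further myeloid transcription factors, 16 were tested. On day 5, 2 rose in hnRNPC-targeted cells (among them CEBPE, 1.10), and in ADAR+hnRNPC-targeted cells 4 rose and 1 fell (among them KLF4 2.11, EGR1 1.36, and CEBPE 1.24, and IRF8 −1.01), with list medians of 0.03 and 0.32. Of 9 MYB family members and textbook MYB targets, 8 were tested, and MYC and the survival gene BCL2 fell in both groups (MYC −1.09 and −1.19, BCL2 −1.08 and −1.55), with list medians of −0.46 and −0.78 beside −0.03 and −0.04 for all genes. Among 25 monocyte and macrophage genes (17 tested), S100A8 (1.30) and S100A9 (1.34), the calprotectin subunits, rose in hnRNPC-targeted cells, and VCAN (2.55) and CSF2RB (1.11) rose in ADAR+hnRNPC-targeted cells, with list medians of 0.16 and 0.27. Of 10 granule genes (9 tested), 1 fell in hnRNPC-targeted cells (MS4A3 −1.25) and 5 fell in ADAR+hnRNPC-targeted cells (MS4A3 −1.76, RNASE2 −1.43, CTSG −1.39, SRGN −1.32, and PRTN3 −1.27), with list medians of −0.38 and −1.27. IRF8 and PRTN3 were named after their values had been seen. The shares of all genes called in these comparisons are those given above for day 5.

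The genes whose group means followed MYB most closely over the 16 groups of study 1 were THUMPD3 (Pearson's r = 0.899 on log2 CPM), MCM8 (0.889), HSPA4L (0.884), TIPIN (0.883), and ZNF770 (0.877), as a description over groups that share clone and days. The tested members ranged from r = −0.64 (ITGAM) to 0.524 (LYZ) with MYB.

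Cytosolic and total RNA were compared in study 2. MYB had 539 and 415 CPM in total RNA of CTRL cells and 763 and 647 CPM in their cytosolic RNA. In hnRNPC-targeted cells it had 305 and 344 CPM in nuclear, 513 and 487 CPM in total, and 702 and 693 CPM in cytosolic RNA. Cytosolic values were above total values in each gRNA group. By edgeR's quasi-likelihood test (adjusted after Benjamini and Hochberg), the log2 difference of the 4 cytosolic from the 4 total groups was 0.54 (SE 0.0643, adjusted p = 1.06e-06), above the median of all genes (0.17), and cytosolic over nuclear RNA was 1.10 (SE 0.130, adjusted p = 1.18e-06; median of all genes, 0.27). With DESeq2's size factors the latter was 0.86, short of a call.

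CSF1R, ELANE, LYZ, and ITGAM behaved in the opposite way. ELANE had 357 and 354 CPM in total RNA of CTRL cells and 84.5 and 74.9 CPM in cytosolic RNA. LYZ had 146 and 118 CPM against 27.2 and 30.5 CPM. CSF1R had 61.5 and 68.2 CPM against 14.7 and 14.8 CPM, and ITGAM 35.5 and 29.2 CPM against 11.4 and 9.38 CPM. All 4 encode secreted, granule, or membrane proteins, and in CTRL cells their cytosolic libraries lay below their total libraries. Their log2 differences between the cytosolic and total groups were −1.67 for ELANE (adjusted p = 3.69e-12), −1.85 for LYZ (adjusted p = 1.64e-11), −1.56 for CSF1R (adjusted p = 2.06e-12), and −1.27 for ITGAM (adjusted p = 1.36e-10), and against nuclear RNA of hnRNPC-targeted cells −2.52, −2.85, −3.04, and −2.17. MPO, also a granule protein, had −0.33 (adjusted p = 0.00121) and SPI1 0.48 (adjusted p = 0.000254). In all, 4 of 8 tested members were lower in cytosolic than in total RNA, where 8.89% of all genes were called, and 4 were lower and 1 (MYB) higher than in nuclear RNA, where 30.5% were called. Of the granule list, 8 of 9 tested genes were lower in cytosolic than in total RNA (median −1.67), and of the further myeloid transcription factors 0 of 18 (median 0.30).

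**Figure D2:**
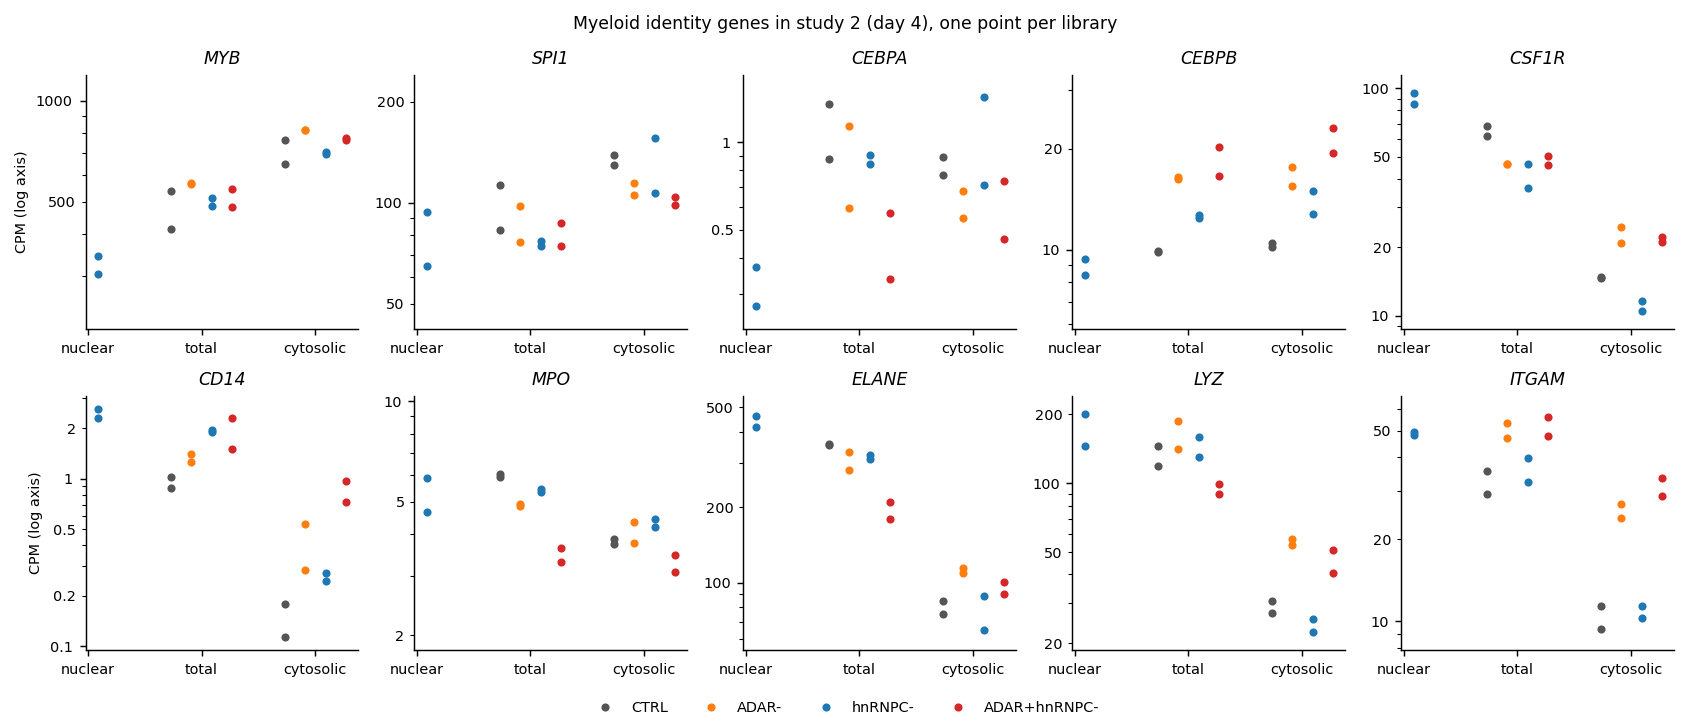
CPM (log axis) of the 10 myeloid genes in nuclear, total, and cytosolic RNA of study 2 on day 4, with 1 point per library and 2 libraries per group. CSF1R, ELANE, LYZ, and ITGAM step down from nuclear to cytosolic RNA, and MYB steps up from 305 to 344 CPM in nuclear RNA to 647 CPM or more in cytosolic RNA.

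Against CTRL cells of the same compartment in study 2, ITGAM and CEBPB were the members that were called, in cytosolic RNA only. In study 1 their calls were in total RNA, and none was with ADAR gRNA alone. In cytosolic RNA, ITGAM had 11.4 and 9.38 CPM in CTRL cells, 11.4 and 10.3 CPM in hnRNPC-targeted, 26.9 and 23.9 CPM in ADAR-targeted, and 33.4 and 28.8 CPM in ADAR+hnRNPC-targeted cells. Both groups with ADAR gRNA were thus above the other groups. Its log2 fold change was 1.29 (SE 0.149, adjusted p = 1.02e-05) with ADAR gRNA and 1.58 (SE 0.149, adjusted p = 7.18e-07) with both gRNAs by edgeR's quasi-likelihood test (adjusted after Benjamini and Hochberg). CEBPB had 10.2 and 10.4 CPM in cytosolic RNA of CTRL cells and 23.0 and 19.4 CPM in ADAR+hnRNPC-targeted cells (log2 fold change 1.04, SE 0.136, adjusted p = 2.06e-05). Without the first of these 2 libraries the value was 0.91, which is no call. In total RNA, ITGAM had 0.64 with ADAR gRNA and 0.68 with both, and CEBPB 0.72 and 0.90, with no call. In cytosolic RNA with ADAR gRNA, list medians were 0.66 for granule genes and 0.49 for monocyte and macrophage genes. They were −0.20 for the further myeloid transcription factors and −0.25 for the MYB family and targets, beside 0.001 over all genes. The higher cytosolic values were thus not particular to ITGAM, and whether the separation of cytosolic RNA differed between groups was not tested.

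MYB did not pass the p limit against CTRL in study 2, with log2 differences from −0.02 to 0.25 and adjusted p from 0.210 to 0.974 over the 6 comparisons (edgeR). Both libraries with ADAR gRNA alone were above both CTRL libraries in total (570 and 565 CPM) and in cytosolic RNA (819 and 817 CPM). In total RNA, 0 of 8 members were called with hnRNPC, ADAR, or ADAR+hnRNPC gRNA (all genes, 0.733, 2.93, and 4.29%), although 2, 3, and 6 had an unadjusted p under 0.05 by edgeR. In cytosolic RNA the counts were 0, 1, and 2 (all genes, 0.484, 4.95, and 7.9%), with 2 members at an unadjusted p under 0.05 for hnRNPC. DESeq2 and limma-voom called 0 members wherever edgeR did in these comparisons. CD14 was found in total RNA at 0.878 and 1.02 CPM in CTRL and at 1.96 and 1.90 CPM in hnRNPC-targeted cells, and in cytosolic RNA at 0.114 and 0.180 CPM in CTRL and 0.969 and 0.721 CPM in ADAR+hnRNPC-targeted cells. CEBPA stayed between 0.272 and 1.43 CPM in all 18 libraries.

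The introns of MYB were then compared, since exonic counts alone would not show retained or abnormally processed intron sequence. Intron 15 had 44.5, 41.1, and 31.5 CPM in CTRL cells of day 3, 39, 34.7, and 29.3 CPM on day 4, and 43.9, 34.4, and 36.8 CPM on day 5. hnRNPC-targeted libraries had 96.6, 91.2, and 65.3 CPM on day 3, 86.8, 72.8, and 67.3 CPM on day 4, and 50.4, 55.5, and 49.6 CPM on day 5. The libraries with both gRNAs had 82.1, 89.2, and 65.3 CPM, 81.6, 75.8, and 65.0 CPM, and 55.2, 54.4, and 46.2 CPM on the 3 days. Every library with an hnRNPC gRNA was above every CTRL library of its day, and the distance was smallest on day 5. ADAR-targeted cells overlapped CTRL, with 28.8 to 50.5 CPM over the 3 days.

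The log2 fold change of intron 15 in hnRNPC-targeted cells was 1.11 (SE 0.182, adjusted p = 1.91e-05) on day 3, 1.14 (SE 0.182, adjusted p = 7.96e-06) on day 4, and 0.43 (SE 0.180, adjusted p = 0.0643) on day 5, in edgeR's quasi-likelihood test (adjusted after Benjamini and Hochberg) over 21798 introns. In ADAR+hnRNPC-targeted cells it was 1.01 (SE 0.181), 1.11 (SE 0.182), and 0.44 (SE 0.180), with adjusted p = 0.000105, 1.15e-05, and 0.0410. With ADAR gRNA alone the values were 0.04, −0.06, and 0.00. Of the 13 tested MYB introns, intron 15 was the only one called on days 3 and 4, in both groups with hnRNPC gRNA. Without the third CTRL library of day 3 the values of that day were 0.98 and 0.88 and fell short of the fold limit, and that of ADAR+hnRNPC-targeted cells did so too without their first (0.98) or second library (0.92).

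On day 5, intron 15 was not called, and in ADAR+hnRNPC-targeted cells introns 6 (−1.12), 9 (−1.27), and 10 (−1.20) were lower. Without the second CTRL library of day 5, introns 2 and 3 were called lower as well. All 13 tested introns had an adjusted p of at most 0.05 in that comparison, with 11 lower and introns 14 (0.35) and 15 (0.44) higher, and with a median of −0.90 beside −0.28 over all tested introns. With library sizes from intron totals, the median over all tested introns was −0.11, so that the size of these differences depends on the scaling. In hnRNPC-targeted cells of day 5, 0 of 13 introns were called, although 11 had an unadjusted p under 0.05 by edgeR, and limma-voom called 0. ADAR targeting gave 0 calls on each day, with 0 introns at an unadjusted p under 0.05 by edgeR and 0 calls by limma-voom. Over all tested introns, the shares called on days 3, 4, and 5 were 2.63, 4.07, and 6.36% with hnRNPC gRNA, 1.84, 4.28, and 13.5% with both gRNAs, and 0, 0, and 0% with ADAR gRNA.

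**Figure D3:**
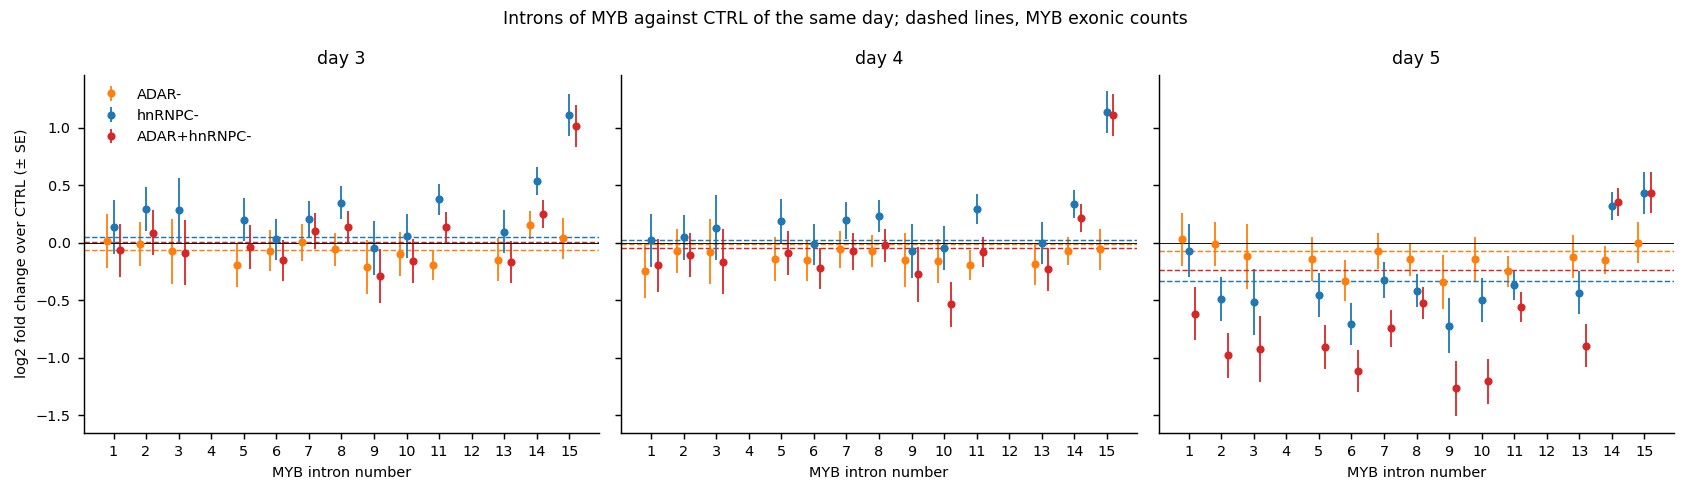
Log2 fold change over CTRL (± SE) of the 13 tested MYB introns on days 3, 4, and 5, colored by gRNA group, with dashed lines at the log2 fold change of MYB gene counts. Intron 15 of hnRNPC- and ADAR+hnRNPC-targeted cells stands at 1.01 to 1.14 on days 3 and 4, while MYB gene counts of these groups lie between −0.04 and 0.05.

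To set the intron against the gene in the same library, intron reads were divided by MYB gene reads. Intron 15 had 4.24 to 6.63 reads per 100 MYB gene reads in the 9 CTRL libraries (median 5.21) and 9.28 to 13.9 in the 9 hnRNPC-targeted libraries (median 9.74), without overlap. ADAR+hnRNPC-targeted cells had 8.77 to 13.3 and ADAR-targeted cells 4.25 to 7.95. By exact permutation of the labels within days (two-sided, 8000 permutations), the log2 ratio differed by 0.98 between hnRNPC-targeted and CTRL cells (p = 0.00025, the smallest these permutations can give, adjusted over 13 introns 0.00325). Intron 14, which lies directly upstream, was higher by 0.49 (adjusted p = 0.00325), and the other 11 introns did not pass. With both gRNAs, intron 15 was higher by 0.95 (adjusted p = 0.00325) and intron 14 by 0.37 (adjusted p = 0.00542), and introns 6, 9, 10, and 13 were lower by this exact permutation test (−0.41, −0.52, −0.54, and −0.34). The test takes the 9 libraries of a group as independent. The study describes gRNA nucleofection followed by harvests on days 3, 4, and 5, in independent replicates. Libraries of different days may thus stem from the same experiment, which the labels do not show, and the p-values would then be too small. The same holds for the permutation tests of depth and editing over the 3 days below.

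The reads were not spread evenly over intron 15. Read depth at the 312 editing sites, all of which lie in this intron, was averaged in 500-base windows. On day 4, the window from base 1001 to 1500 of the intron (20 sites) had 0.344 RPM (reads scaled to library size) in CTRL and 0.775 in hnRNPC-targeted cells, and the window from base 6001 to 6500 (17 sites) had 0.442 and 1.01. In the window from base 10001 to 10500 (15 sites) the values were 0.167 and 0.101. The ECR (editing cluster region, a merged stretch of neighboring editing clusters and their flanks) that the authors counted at MYB spans chr6:135524457-135531646, and 273 of the 312 sites lie in it.

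Sites inside the ECR had a mean depth of 0.185 to 0.341 RPM in the 9 CTRL libraries and 0.358 to 0.942 in the 9 hnRNPC-targeted libraries, without overlap. Sites outside the ECR had 0.0579 to 0.243 and 0.0673 to 0.254. Inside the ECR, hnRNPC-targeted cells were 2.31-fold and ADAR+hnRNPC-targeted cells 2.57-fold above CTRL (exact permutation within days, p = 0.00025 each, adjusted 0.000375 over 6 comparisons), and outside 0.884-fold and 0.843-fold (p = 0.559 and 0.412). The log2 ratio of inside to outside differed by 1.38 and 1.61 (exact permutation, p = 0.00025 each, adjusted 0.000375). This split was chosen after the depth along the intron had been seen. The sites had been kept by read counts among other limits, and the ECR was drawn around them. Neither the sites nor the border were thus chosen independently of depth.

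**Figure D4:**
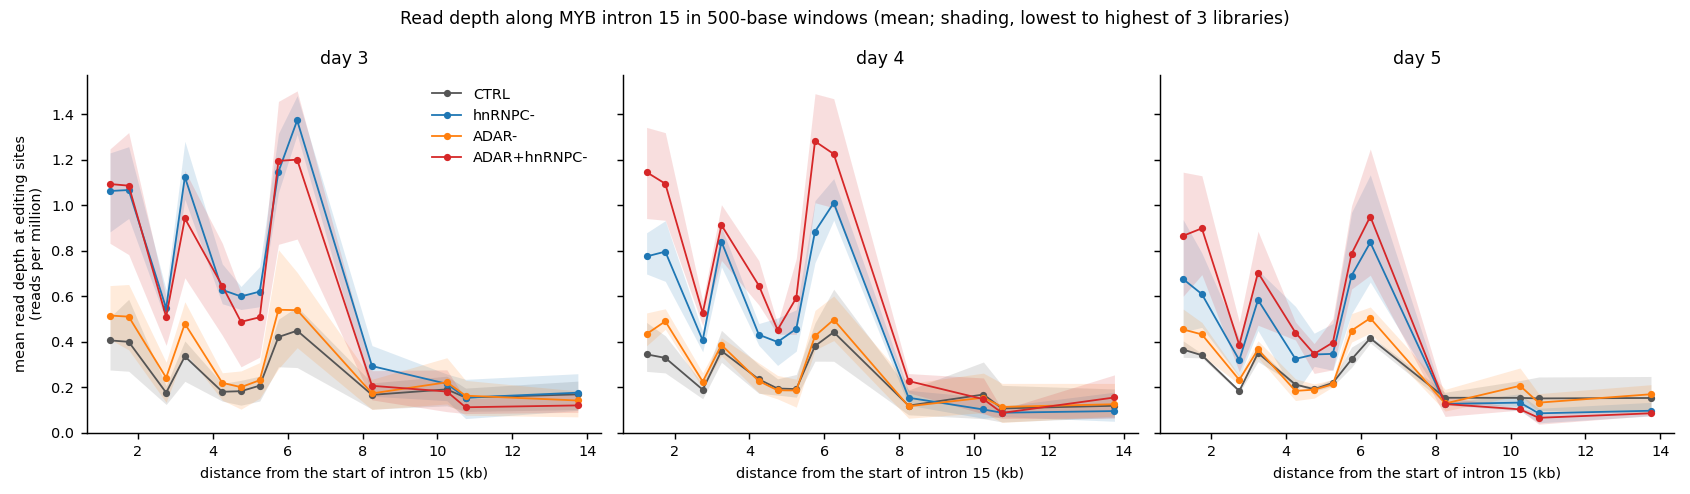
Mean read depth at editing sites (RPM) against the distance from the start of MYB intron 15 in kb, in 500-base windows on days 3, 4, and 5, with shading from the lowest to the highest of 3 libraries. The lines of hnRNPC- and ADAR+hnRNPC-targeted cells lie above CTRL and ADAR-targeted cells in the proximal windows up to base 6500, and the lines lie close together in the distal windows.

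Reads counted on the MYB ECR rose in parallel. They stood at 62.2 to 67.8 CPM in the 9 CTRL libraries, at 95.6 to 117 CPM in hnRNPC-targeted cells of days 3 and 4, and at 68.3 to 80.4 CPM on day 5. The log2 fold change was 0.70, 0.70, and 0.19 with hnRNPC gRNA (adjusted p = 1.80e-08, 1.14e-08, and 0.0621) and 0.68, 0.67, and 0.28 with both gRNAs (adjusted p = 4.81e-08, 2.74e-08, and 0.0036, edgeR's quasi-likelihood test). None reached the fold limit for a call, in comparisons in which 5.22, 6.88, and 9.3% (hnRNPC) and 3.76, 7.12, and 16.7% (ADAR+hnRNPC) of all tested ECRs were called. In study 2, the MYB ECR had 57.9 and 59.4 CPM in total and 83.2 and 75.0 CPM in cytosolic RNA of CTRL cells, and 70.6 and 65.7 CPM in total, 104 and 96.2 CPM in cytosolic, and 56.5 and 60.1 CPM in nuclear RNA of hnRNPC-targeted cells. Its cytosolic level was thus above the total level, with a log2 difference of 0.48 (SE 0.0585, adjusted p = 5.03e-07) that was close to that of MYB gene counts (0.54) and no call, whereas 324 of the 335 ECRs called in that comparison (13.6% of all) were lower in cytosolic RNA. The first 6 bases of this ECR lie in an exon of the principal MYB transcript, so that spliced MYB RNA carries them too. With alternative MYB transcripts included, 632 of its bases are exonic. In the 9 CTRL libraries above, the ECR had more CPM than the whole last intron, which holds all its other bases. Its counts thus do not describe intronic RNA alone, and how many of its reads came from exons was not tested.

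A-to-I editing in MYB was measured at sites at which the authors gave edited and total reads. Of 408 listed sites in the gene in study 1, 312 had no empty value and a median of at least 10 reads, and all 312 have an A on the plus strand of the reference. Pooled over these sites, 2.75 to 3.86% of reads were edited in the 9 CTRL libraries, 3.8 to 4.79% in hnRNPC-targeted, 0.799 to 1.52% in ADAR-targeted, and 1.09 to 2.11% in ADAR+hnRNPC-targeted cells. The ADAR gRNA groups did not overlap the others, and the highest CTRL library (3.86%) lay just above the lowest hnRNPC-targeted library (3.8%). The mean was 3.42% in CTRL and 1.04% in ADAR-targeted cells, a difference of −2.38 percentage points (exact permutation within days, p = 0.00025, adjusted 0.000375 over 3 comparisons). hnRNPC-targeted cells were 0.844 points above CTRL (exact permutation, p = 0.00075, adjusted 0.00075), and ADAR+hnRNPC-targeted were 2.78 points below hnRNPC-targeted cells in the same test, written as a difference of −2.78 (adjusted p = 0.000375). The pooled percent weights each site by its reads, and the spread of reads over the sites differed between hnRNPC-targeted and CTRL cells. The 0.844 points thus describe pooled reads. The sites had been listed because they were edited in libraries without ADAR gRNA, so that lower values with ADAR gRNA are in part set by that choice. The study's methods kept a site that passed limits on editing and reads in all libraries of any treatment. Sites kept through hnRNPC-targeted libraries would favor higher values there than in CTRL cells, and how many these were was not tested.

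By site, 261 of 312 were lower and 11 higher in ADAR-targeted than in CTRL cells, and 195 were higher and 110 lower in hnRNPC-targeted cells. The most edited site had 50.2% of 223 reads in CTRL, 62.5% of 619 in hnRNPC-targeted, 22.2% of 171 in ADAR-targeted, and 39.6% of 409 in ADAR+hnRNPC-targeted cells. Neighboring sites share reads and are not independent, and the choice of sites bears on these counts as well. With IFN-α on day 4, editing was 6.47, 8.70, and 7.98%, above the 3.29, 3.78, and 3.75% of CTRL cells of that day without overlap (exact permutation p = 0.1, the smallest that 3 against 3 allows). That comparison was also chosen after the values were seen. Sites kept through IFN-α–treated libraries would favor higher values there, and how many these were was not tested.

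In study 2, 370 of 409 listed MYB sites were used, 359 of them in intron 15, and no test was made with 2 libraries per group. CTRL cells had 5.47 and 4.48% edited reads in total and 6.75 and 7.17% in cytosolic RNA. hnRNPC-targeted cells had 6.22 and 6.95% in nuclear, 7.18 and 7.58% in total, and 7.39 and 8.06% in cytosolic RNA. All 8 libraries with ADAR gRNA had 1.22 to 2.25% and were below every library without it, as in study 1. The cytosolic libraries of CTRL cells were thus above their total libraries, and those of hnRNPC-targeted cells overlapped theirs.

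**Figure D5:**
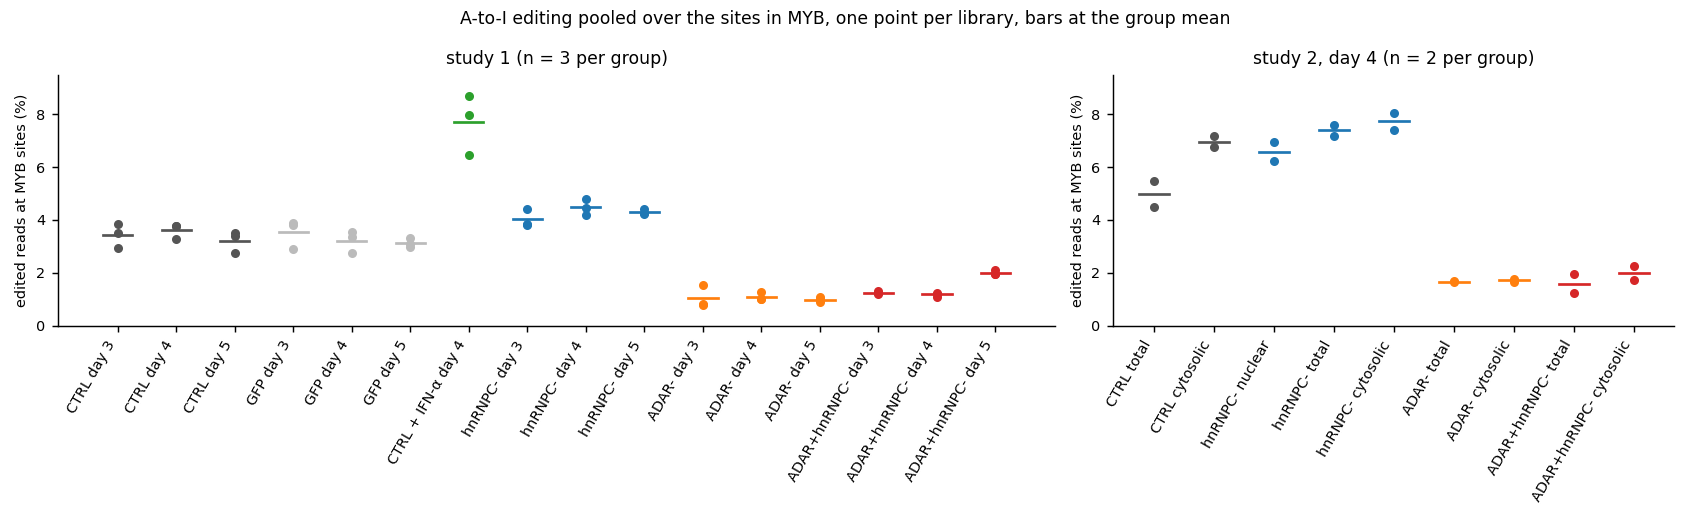
Percent of edited reads pooled over the MYB sites, with 1 point per library and a bar at the group mean, in study 1 (left, 3 libraries per group) and study 2 (right, 2 libraries per group). Groups with ADAR gRNA lie at 0.799 to 2.25%, CTRL and GFP-targeted cells of study 1 near 3%, and IFN-α–treated cells at 6.47 to 8.70%.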

How the data were processed

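Stranded, rRNA-depleted total RNA libraries were sequenced in 48 samples of study 1 and 18 of study 2. The authors aligned reads to GRCh37 with STAR 2.5.4a and deposited raw counts of unique reads per gene (GENCODE annotation, featureCounts), intron, and ECR, and edited and total read counts per editing site. The strand setting of the counting is not given in the sources used here. Groups were taken from the sample labels. Counts were TMM-normalized and fitted over all groups of a study with edgeR 4.0.16 (R 4.3.3, quasi-likelihood test, Benjamini-Hochberg adjustment over all features of a table). Features needed a mean log2 CPM of at least 0.5 (genes, 13193 and 13650 tested), 1 (introns, 21798), or 4.5 (ECRs, 2528 and 2470). The ECR minimum was set on CPM relative to each library's total of ECR reads, whereas all CPM printed for ECRs are relative to gene library sizes. Calls required both an adjusted p of at most 0.05 and a log2 fold change of 1 or more in either direction (for interactions, the adjusted p alone). DESeq2 1.42.0 and limma 3.58.1 (voom) were alternatives. The fits were tested on simulated data. Intron-to-gene ratios and editing were compared by exact permutation within days. RPKM used exonic lengths of a GRCh37 annotation, which gave symbols for 55538 of 57820 identifiers. All members and MYB introns are described, full statistics are given for called members and for MYB, and from each list up to 4 called genes with the largest change on day 5 are named, with the 5 genes whose group means correlate best with MYB. The members and lists were chosen with earlier results of these data known. Sequences were read from the GRCh37 reference. The study's methods describe replicates as independent experiments. A few marker genes, list genes, and sequence windows are not reported here.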

Additional observations from a re-analysis of the deposited data

Results flagged for a closer look

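The interaction of ADAR and hnRNPC targeting on the log2 scale passed its test for 8 combinations of gene and day, which is how these results were picked out. On day 4 the values were 1.47 for CEBPA, 0.95 for CEBPB, and 0.72 for ITGAM. On day 5 they were 0.86 for CEBPB, 0.50 for CSF1R, 0.61 for ITGAM, −1.06 for ELANE, and −0.61 for MPO. CEBPB and ITGAM passed on both days with the same sign. For ELANE, the single gRNA groups of day 5 were at 0.17 (ADAR) and 0.03 (hnRNPC) and the combined group at −0.86. On day 4 the interaction of ELANE had the opposite sign (0.55, adjusted p = 0.0983, edgeR) and did not pass, with the single gRNA groups at −0.35 (ADAR) and −0.86 (hnRNPC) and the combined group at −0.66. For CEBPA on day 4, the hnRNPC group was at −1.20, the ADAR group at −0.61, and the combined group at −0.33. On day 5, 47.6% of all tested genes passed the same test.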

How the results depend on the processing

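Without the minimum level, CD14 and CEBPA entered the tests, and 2 members were called with hnRNPC gRNA on days 4 and 5, 1 and 2 with both gRNAs on days 3 and 4, 8 in the interaction of day 5, and in study 2 1 with hnRNPC in total, 2 with ADAR in cytosolic, and 1 with both in total RNA. Against GFP-targeted cells, 0 members were called with hnRNPC and 2 with both gRNAs on day 4. limma-voom called 1 with IFN-α, and a fit of the 12 libraries of the day gave 8 in the interaction of day 5. The causes were not tested. When 1 library was left out, the members called ranged from 0 to 1 with IFN-α (CEBPA, without the second CTRL or the first or second IFN-α library), from 1 to 2 with ADAR gRNA in cytosolic RNA (LYZ added without the second CTRL library), from 0 to 1 with both gRNAs in total RNA (CEBPB added without their second library), and from 1 to 2 with both in cytosolic RNA. MYB introns called ranged from 0 to 1 with hnRNPC and with both gRNAs on day 3, and from 3 to 5 with both on day 5. Intron 15 ranged from 0.98 to 1.27 and from 0.88 to 1.13 on day 3. MYB passed the interaction test of day 5 only without the third ADAR+hnRNPC library (0.24, adjusted p = 0.0298, edgeR). When 1 replicate number was left out, the intron ratio ranged from 0.47 to 0.52 (intron 14) and 0.96 to 1.03 (intron 15) with hnRNPC, and from 0.32 to 0.42 and 0.90 to 1.03 with both gRNAs, and from 0 to 0 introns passed, since fewer permutations are possible. No value changed sign against its call.

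The replicate numbers were not treated as paired, since the labels do not tie a number to a shared experiment and not every same-numbered pair correlated above 0.1. Every pair did in 8 of 14 comparisons of study 1 (r from −0.17 to 0.75 over 42 pairs) and in 5 of 6 of study 2 (r from −0.14 to 0.45). With 2 libraries per group, both pairs of a comparison in study 2 have the same r by construction, so that each gives 1 value. With the replicate block, 7 instead of 5 members passed the interaction of day 5 (SPI1 and LYZ added), no other member's call changed, and intron 15 was at 1.11 and 1.14 with hnRNPC gRNA on days 3 and 4. Counting depth limits CD14 and CEBPA of study 2, and 2 libraries per group limit study 2.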

Other observations

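Intron 1 of CSF1R (chr5:149466171-149492823, GRCh37) was lower in ADAR+hnRNPC-targeted cells of day 5, with a log2 fold change of −1.21 (SE 0.222, adjusted p = 2.21e-05, edgeR's quasi-likelihood test), while CSF1R gene counts were at 0.33. Many other introns were lower in that comparison too. The share of all introns called and the dependence on scaling given above for the MYB introns of that day apply here as well. ECRs were also counted at ELANE (chr19:853256-855993) and SPI1 (chr11:47394090-47396117). The ELANE ECR was lower in cytosolic than in total RNA by −1.73 (SE 0.0812, adjusted p = 6.24e-13), as ELANE gene counts were (−1.67). The SPI1 ECR was lower by −1.20 (SE 0.164, adjusted p = 2.04e-06), while SPI1 gene counts were higher by 0.48. The SPI1 ECR had 2.87 and 6.05 CPM in total and 1.06 and 1.62 CPM in cytosolic RNA of CTRL cells.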
